A study of Mus musculus with 70 samples.

Results

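The 9 transcription factors Tcf7, Lef1, Bach2, Foxo1, Foxo3, Foxp1, Satb1, Id3 and Ets1 were followed across mouse regulatory T cells (Tregs) of 6 tissues. They are 9 of the 53465 gene IDs in the count table and were chosen by name as factors tied to quiescence and stemness of T cells. All 9 were among the 13173 protein-coding genes tested. RNA was sequenced from Tregs sorted from 5 male mice, namely from spleen, blood, back skin, lungs, the lamina propria of the colon and visceral adipose tissue of the abdomen (VAT). The mice were aged 16.6 to 18.6 weeks. Each tissue gave ST2+ CD44hi and ST2- CD44hi Tregs, where ST2 is the receptor for IL-33 and high CD44 marks antigen-experienced cells. Spleen and lungs also gave ST2- CD44lo Tregs, called central Tregs here, which makes 14 groups and 70 libraries. Every mouse carried the allele Foxp3tm4(YFP/icre)Ayr, named Foxp3-YFP-cre, on a B6.129(Cg) background, so all groups share it. In these mice YFP and Cre are made from the Foxp3 locus, and YFP identified the cells in a gate of live CD45.2+ CD4+ cells from which other lineages were excluded by surface markers.

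Of the 70 libraries, the 67 with over 1000000 counts were used (1304560 to 2759926 counts, median 2039002). A library of blood ST2+ Tregs of mouse 1 and those of colon ST2+ Tregs of mice 2 and 5 were left out, so blood ST2+ has 4 libraries, colon ST2+ has 3 and each other group has 5. Most libraries were made from 220 cells and 7 kept libraries from fewer. One of these, from blood ST2+ Tregs of mouse 3, held 55 cells. All 6 Treg markers (Foxp3, Il2ra, Ctla4, Ikzf2, Cd4 and Cd3e) had counts in every group, with a summed level of 2130 to 5330 CPM (counts scaled to a library of 1000000) per library. Markers of other cell types were present at levels that differed by tissue, and some of them are given beside the results.

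T cells that have not met antigen, and long-lived memory cells, stay small and out of the cell cycle through a set of transcription factors that are switched off or diluted as the cells become effectors. TCF-1 (Tcf7) and LEF-1 (Lef1) bind the same DNA motif and keep the potential for renewal, BACH2 represses effector genes at AP-1 sites, and FOXO factors are active while the kinase AKT is quiet and drive genes for homing to lymph nodes and for survival. In Tregs, TCF-1, LEF-1, BACH2, FOXO1, FOXP1, SATB1 and ID3 are best known from the resting or central state in lymphoid organs, and the shift to effector Tregs in tissues goes with their decline.

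**Figure D1:**
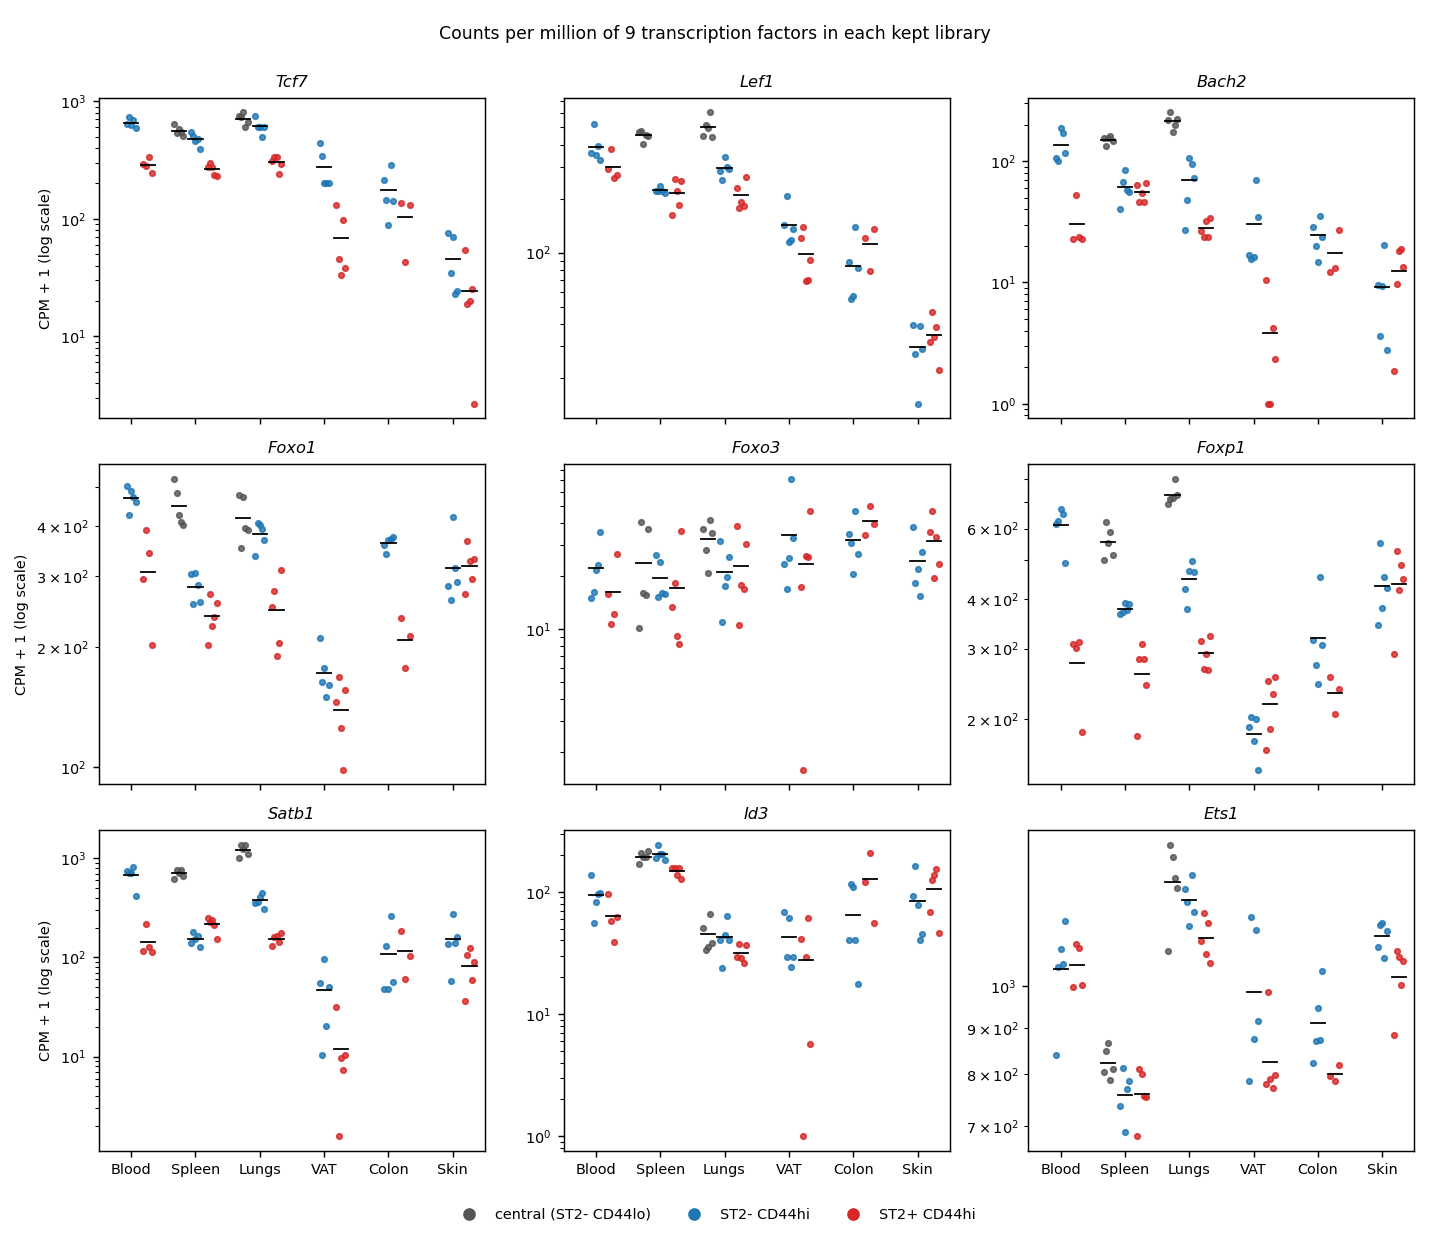
Levels of the 9 factors in each of the 67 kept libraries, as CPM + 1 on a log axis, by tissue on the horizontal axis and by population in colour, with 1 panel per gene. Points are libraries and black bars are group means. Satb1, Bach2, Tcf7 and Lef1 span the widest ranges, and Ets1 the narrowest.

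The 9 genes differed most in how far their levels moved between groups. The ratio of the highest to the lowest of the 14 group means in CPM was 110.5 for Satb1, 75.4 for Bach2, 30.6 for Tcf7 and 17.3 for Lef1. It was 7.69 for Id3, 3.99 for Foxp1, 3.40 for Foxo1, 2.63 for Foxo3 and 1.72 for Ets1. Central Tregs of the lungs had the highest mean of Tcf7, Lef1, Bach2, Foxp1, Satb1 and Ets1, and ST2- CD44hi Tregs of blood that of Foxo1. VAT ST2+ Tregs had the lowest mean of Bach2, Foxo1, Satb1 and Id3. Tcf7 was lowest in skin ST2+ and Lef1 in skin ST2- Tregs. Neighbours in the order of means mostly could not be told apart. For Satb1, Foxp1 and Lef1, 11 of 13 neighbouring groups overlapped in their libraries, and for the other 6 genes 12 or 13 of 13 did.

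Per kilobase of exon, Ets1 and Tcf7 were the most abundant of the 9, with medians over the 67 libraries of 118.3 and 110.5 CPM per kb. Foxo1 was at 35.2, Id3 at 34.7, Foxp1 at 26.6 and Lef1 at 24.3 CPM per kb. The lowest medians were 8.35 for Satb1, 3.34 for Bach2 and 2.95 for Foxo3. The median library held 42 counts of Foxo3 and 71 of Bach2 against 1955 of Ets1, so small differences of Foxo3 and Bach2 are imprecise.

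In GRCm38, the genes lie at chr11:52252371-52283014 (Tcf7), chr3:131110471-131224356 (Lef1), chr4:32238804-32586108 (Bach2), chr3:52268336-52353221 (Foxo1) and chr10:42181841-42276755 (Foxo3). The others lie at chr6:98925338-99522721 (Foxp1), chr17:51736187-51833290 (Satb1), chr4:136143497-136145755 (Id3) and chr9:32636221-32757820 (Ets1). Reads were counted over exons of the whole gene. A gene on the opposite strand covers 13.7% of the exon bases of Lef1, 7.8% of those of Foxo1 and 5.4% of those of Bach2, and the strand setting of the counting is not given in the sources used here, so reads of these partners cannot be told apart from them there.

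Promoters are shown for the 4 members with a range of over 10-fold, which also moved together in pairs (below). The sequences are RefSeq windows of 300 bases in GRCm38.p6, from 250 bases before a transcript start to 50 after it, where the first of those 50 is position +1. For each gene the window shown is the one with the most motif matches, or the first where none had any. Letters searched on both strands were CTTTGAA and CTTTGAT (bound by TCF and LEF factors), GTAAACA (forkhead factors), TGANTCA (BACH and AP-1 factors) and CAGGTG (an E-box). The first and second of these motifs share their first 6 letters. Capitals mark the matches.
Tcf7, chr11:52282546-52282845, minus strand: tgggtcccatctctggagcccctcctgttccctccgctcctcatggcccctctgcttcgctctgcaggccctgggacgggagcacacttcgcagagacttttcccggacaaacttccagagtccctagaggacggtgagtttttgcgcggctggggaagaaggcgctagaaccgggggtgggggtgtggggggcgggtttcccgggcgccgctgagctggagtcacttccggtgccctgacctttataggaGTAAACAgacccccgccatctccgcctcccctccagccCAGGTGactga
Lef1, chr3:131110073-131110372, plus strand: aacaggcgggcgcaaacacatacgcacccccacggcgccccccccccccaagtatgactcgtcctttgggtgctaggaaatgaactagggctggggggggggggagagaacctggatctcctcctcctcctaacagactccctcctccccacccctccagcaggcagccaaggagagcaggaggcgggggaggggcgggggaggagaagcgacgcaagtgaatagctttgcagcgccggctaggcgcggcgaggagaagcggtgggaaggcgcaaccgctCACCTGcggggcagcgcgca
Bach2, chr4:32417185-32417484, plus strand: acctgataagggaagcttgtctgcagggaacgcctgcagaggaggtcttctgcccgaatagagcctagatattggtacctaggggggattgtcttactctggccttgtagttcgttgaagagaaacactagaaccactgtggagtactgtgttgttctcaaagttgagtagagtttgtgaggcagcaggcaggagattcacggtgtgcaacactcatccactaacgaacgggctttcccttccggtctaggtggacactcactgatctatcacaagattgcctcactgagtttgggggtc
Satb1, chr17:51833241-51833540, minus strand: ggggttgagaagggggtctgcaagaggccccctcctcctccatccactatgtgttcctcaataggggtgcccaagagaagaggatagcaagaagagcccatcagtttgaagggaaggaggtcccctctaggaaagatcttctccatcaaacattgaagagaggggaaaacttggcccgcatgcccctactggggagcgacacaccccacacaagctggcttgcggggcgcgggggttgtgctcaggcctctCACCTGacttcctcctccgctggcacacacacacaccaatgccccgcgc

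The Tcf7 window held the forkhead letters at +2 and the E-box letters at +40. Lef1 held the E-box letters on the other strand at +31 and Satb1 held them at +2, also on the other strand. The Bach2 window held none of the 5 motifs, which says only that these letters are not in those 300 bases. RefSeq gave windows for 8 of the 9 members, and Ets1 had no entry. Among their other windows, CTTTGAA lay in a window of Foxp1 at -205, and CAGGTG lay in a Foxp1 window at -133 and a Satb1 window at -172. Of 27025 mouse promoters of this length, 5413 held CAGGTG, and 7.93% held TGANTCA, 5.27% CTTTGAA, 3.72% CTTTGAT and 3.55% GTAAACA.

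ST2+ Tregs were compared with ST2- CD44hi Tregs within each tissue to see which of the 9 factors went with ST2 among effector Tregs. A gene was called when the fold was at least 1.5 and the adjusted p of edgeR's quasi-likelihood test at most 0.05. Of 54 tests, 11 were called, and in all 11 the level was lower in ST2+ Tregs. Blood had 5 of these (Tcf7, Satb1, Foxp1, Bach2 and Foxo1), VAT 3 (Tcf7, Satb1 and Bach2), lungs 2 (Foxp1 and Foxo1) and colon 1 (Foxo1). Of all tested genes, 1.76% were called lower in blood, 1.92% in VAT, 0.304% in lungs and 0.0380% in colon. Lef1, Foxo3, Id3 and Ets1 were not called in any tissue. In blood, 3 of 8 myeloid markers had counts in ST2+ and 4 of 8 in ST2- Tregs (Csf1r, C1qa, Adgre1 and Spi1 at 0 in both), with a summed level of 50.3 to 136 against 10.7 to 89.4 CPM per library. B cell markers had counts for 3 of 7 and 4 of 7 (Ms4a1 and Pax5 at 0 in both), with 56.3 to 183 against 30.9 to 87.5 CPM. All 5 markers of red blood cells had counts in both, with 13.1 to 417 (median 217) against 2.24 to 578 CPM (median 22.4). In VAT, 7 of 8 myeloid markers had counts in each population, with 74.7 to 255 against 0 to 111 CPM. The part of these cells in the ST2 differences was not tested. Counts of RNA from pools of cells cannot tell a smaller share of cells with a transcript from less of it per cell.

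**Figure D2:**
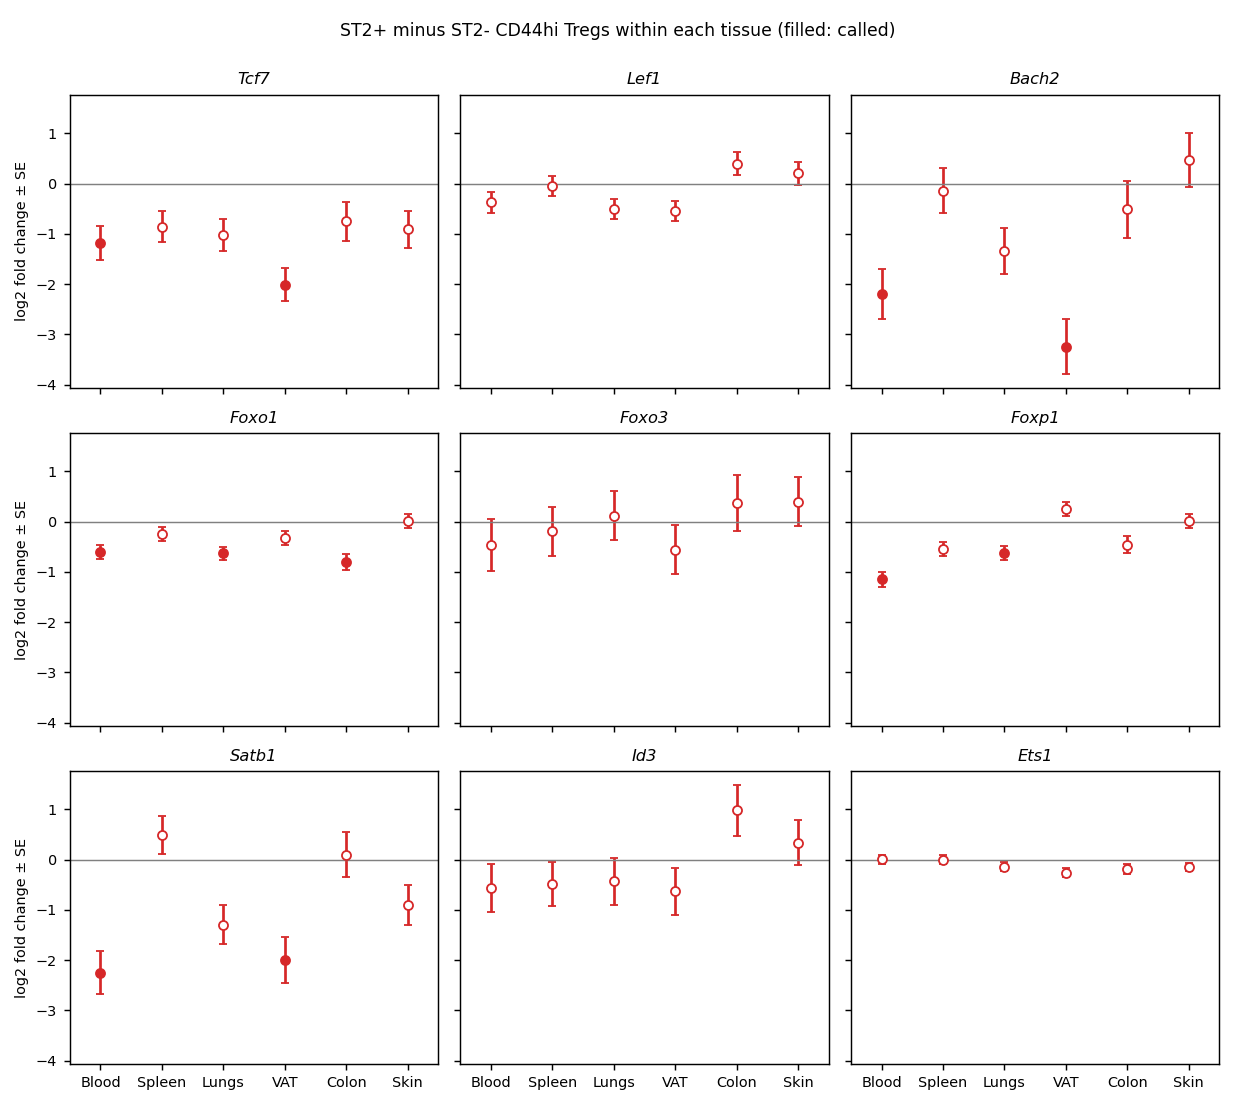
Log2 fold change of ST2+ against ST2- CD44hi Tregs in each of 6 tissues, 1 panel per gene, with bars of 1 SE; filled points passed the fold and the adjusted p. Tcf7 was below 0 in all 6 tissues, while Foxp1, Satb1 and Bach2 moved differently from tissue to tissue.

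Tcf7, which encodes TCF-1, was lower in ST2+ Tregs of blood and VAT. In blood it was at 294, 282, 334 and 243 CPM in the ST2+ libraries of mice 2 to 5, and at 638, 732, 627, 689 and 590 CPM in the ST2- libraries of mice 1 to 5. The groups did not overlap, and the log2 fold change was -1.19 (SE 0.34, adjusted p = 0.0286). The call was lost without mouse 2, 3, 4 or 5, where the adjusted p was 0.0645 to 0.143, and 0.21 without the libraries of fewer than 220 cells (0.0595 with the number of cells as a covariate). In VAT, Tcf7 was at 129, 44.6, 32.6, 96.2 and 37.0 CPM in ST2+ and at 439, 344, 199.5, 201 and 200.3 CPM in ST2- Tregs of mice 1 to 5. Here too the groups did not overlap (log2 fold change -2.01, SE 0.33, adjusted p = 3.78e-05).

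In spleen, Tcf7 was at 273, 299, 276, 233 and 229 CPM in ST2+ and at 547, 506, 455, 474 and 391 CPM in ST2- Tregs. It was lower in ST2+ Tregs of 5 of 5 mice and the groups did not overlap, but the gene was not called (log2 fold change -0.86, SE 0.31, adjusted p = 0.513). In lungs it was not called either, with 308, 334, 337, 238 and 290 CPM in ST2+ and 742, 607, 602, 500.3 and 609 CPM in ST2- Tregs (log2 fold change -1.02, SE 0.31, adjusted p = 0.119). All 14 groups shared 1 estimate of the spread in these tests, and Tcf7 varied more among the libraries of VAT, colon and skin than among those of spleen and lungs. When only the 2 compared groups were fitted, Tcf7 was called in spleen (adjusted p = 0.000693) and in lungs (adjusted p = 0.000285). With mouse as a block it was called in lungs (adjusted p = 0.0462). In colon and skin the differences of -0.75 and -0.91 were not called, and the ranges of the libraries overlapped.

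Lef1, which encodes the partner of TCF-1, was not called in this comparison. Its log2 fold changes were -0.55 in VAT, -0.50 in lungs, -0.38 in blood and -0.05 in spleen, and 0.20 in skin and 0.40 in colon, with adjusted p of at least 0.118. Libraries of the 2 populations overlapped in all 6 tissues, although Lef1 was lower in ST2+ Tregs in 5 of 5 mice in lungs and VAT.

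Bach2, which encodes a repressor of effector genes, had the largest called log2 fold change of the 9 between ST2+ and ST2- Tregs. In VAT it was at 9.55, 0, 0, 3.19 and 1.32 CPM in ST2+ and at 15.8, 14.6, 15.3, 68.7 and 33.3 CPM in ST2- Tregs. The groups did not overlap (log2 fold change -3.25, SE 0.55, adjusted p = 6.03e-05). A count of 0 in the libraries of mice 2 and 3 allows up to 1.74 and 1.36 CPM (3 counts, counting error only), and most values there rest on few counts. Bach2 in VAT was not called without the libraries of fewer than 220 cells, which left mouse 1 as the only ST2- library of VAT (log2 fold change -2.33, adjusted p = 0.109), nor with the 2 groups fitted alone (adjusted p = 0.247).

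In blood, Bach2 was at 21.9, 51.3, 22.6 and 21.8 CPM in ST2+ Tregs of mice 2 to 5 and at 105, 100.1, 186, 170 and 115 CPM in ST2- Tregs. The groups did not overlap (log2 fold change -2.20, SE 0.51, adjusted p = 0.00445). The highest of the ST2+ values came from the library of 55 cells. Bach2 was also lower in ST2+ Tregs of 5 of 5 mice in lungs (log2 fold change -1.34, SE 0.46, adjusted p = 0.196), where the ranges overlapped.

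Satb1, a chromatin organiser needed for T cell development, was lower in ST2+ Tregs of blood and VAT. In blood it was at 114, 216, 126 and 111 CPM in ST2+ Tregs of mice 2 to 5 and at 736, 704, 701, 811 and 416 CPM in ST2- Tregs (log2 fold change -2.25, SE 0.42, adjusted p = 0.000376). No library of either group reached the range of the other. In VAT, Satb1 was at 30.2, 0.579, 8.60, 6.38 and 9.26 CPM in ST2+ and at 53.9, 9.28, 96.4, 19.5 and 49.0 CPM in ST2- Tregs. The ranges overlapped, but ST2+ was below ST2- in 5 of 5 mice (log2 fold change -1.99, SE 0.46, adjusted p = 0.00478). This call was lost without mouse 3 or 5 (adjusted p 0.134 and 0.0532), with voom (adjusted p = 0.449) and with the 2 groups alone (adjusted p = 0.359).

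Satb1 in lungs was at 128, 159, 164, 140 and 174 CPM in ST2+ and at 355, 364, 402, 449 and 304.5 CPM in ST2- Tregs, without overlap but not called (log2 fold change -1.29, SE 0.38, adjusted p = 0.0916). It was called with the 2 groups alone (adjusted p = 4.2e-05). Spleen went the other way, with a higher Satb1 level in ST2+ than in ST2- Tregs of 5 of 5 mice (log2 fold change 0.50, SE 0.38), where the ranges overlapped and the gene was not called.

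Foxp1, a forkhead repressor that holds naive T cells in quiescence, had the smallest adjusted p in blood. It was at 307, 300.5, 310.1 and 184 CPM in ST2+ Tregs of mice 2 to 5 and at 615, 627, 670.2, 652.5 and 491 CPM in ST2- Tregs, without overlap (log2 fold change -1.15, SE 0.15, adjusted p = 4.89e-07). Lungs had 313, 266, 290.5, 263.5 and 321 CPM in ST2+ and 422, 377, 469.5, 498 and 467 CPM in ST2- Tregs (log2 fold change -0.62, SE 0.14, adjusted p = 0.013). The lung groups did not overlap, and the call was lost without mouse 2, 3 or 4 (adjusted p 0.054 to 0.217). In spleen Foxp1 was lower in 5 of 5 mice without overlap but missed the threshold (log2 fold change -0.54, SE 0.14, adjusted p = 0.071). In VAT and skin the differences were 0.25 and 0.01 and were not called.

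Foxo1, the main FOXO factor of T cells, was lower in ST2+ Tregs of blood, lungs and colon by a similar amount. In blood it was at 294, 390.1, 343 and 201 CPM in ST2+ Tregs of mice 2 to 5 and at 502, 426, 488, 471 and 458 CPM in ST2- Tregs (log2 fold change -0.61, SE 0.14, adjusted p = 0.00533). In lungs it was at 249.8, 274, 189, 204 and 310.5 CPM in ST2+ and at 335, 407, 401, 392.5 and 369 CPM in ST2- Tregs (log2 fold change -0.63, SE 0.13, adjusted p = 0.00488). Neither tissue had overlapping groups.

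In colon Foxo1 was at 235, 175.5 and 212 CPM in the ST2+ libraries of mice 1, 3 and 4 and at 357, 340.3, 369, 371 and 374 CPM in ST2- Tregs (log2 fold change -0.80, SE 0.16, adjusted p = 0.00945). The groups did not overlap. All 8 myeloid markers had counts in colon ST2+ Tregs, with a summed level of 1110 to 1290 CPM per library against 31.3 to 257 CPM in colon ST2- Tregs (Itgam at 0), and 6 of 6 gut epithelium markers summed to 175 to 817 against 36.9 to 667 CPM. Epcam led the gut sum, and its mean was also 154 CPM in spleen ST2+ Tregs. Stroma and fat markers (Adipoq at 0) summed to 251 to 818 against 7.27 to 595 CPM, and B cell markers to 128 to 398 against 120 to 250 CPM. The part of these cells in the colon result was not tested. Foxo1 lost its call without mouse 5 in blood (adjusted p = 0.1001), without mouse 3 or 4 in lungs (0.125 and 0.14) and without mouse 1, 3 or 4 in colon (0.0631 to 0.644). With the 2 groups fitted alone, it was not called in blood (0.135) or colon (0.0557).

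Foxo3, Id3 and Ets1 were not called between ST2+ and ST2- Tregs in any of the 6 tissues by edgeR's test. Id3, an inhibitor of E proteins that is high in resting Tregs, was lower in ST2+ Tregs of spleen in 5 of 5 mice and without overlap (156, 157, 136, 155 and 126 against 189, 242.5, 203, 203 and 182 CPM), at a log2 fold change of -0.48 (SE 0.44). Ets1 was lower in 5 of 5 mice in VAT and skin by -0.26 and -0.15 (SE 0.086 each), where the ranges overlapped. For spleen and skin no member was called by edgeR's test, while at an unadjusted p below 0.05 there were 2 members in each. Of the 13173 genes, 679 in spleen and 1114 in skin were below that p. In spleen, voom called 1 (Tcf7) and DESeq2 called 0, and in skin both called 0. Of all genes, 0.00759% were called lower in ST2+ Tregs of spleen and 0.137% in those of skin.

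Whether the ST2 difference itself varied from tissue to tissue was tested as an interaction of tissue and ST2. It was found for 3 of the 9 members, with adjusted p of 0.000152 for Foxp1, 0.00633 for Satb1 and 0.00748 for Bach2, against 1.40% of all genes. For Foxp1, the ST2 difference was higher by 1.40 (SE 0.21) in VAT and by 1.16 (SE 0.21) in skin than in blood, and by 0.87 (SE 0.20) in VAT than in lungs, all on the log2 scale. For Satb1, it was higher by 2.75 (SE 0.56) in spleen than in blood and -2.49 (SE 0.60) in VAT relative to spleen. For Bach2, the difference in VAT stood at -3.11 (SE 0.71) relative to spleen, and skin stood above VAT by 3.71 (SE 0.77) and above blood by 2.66 (SE 0.73). The interaction was not called for Tcf7, whose ST2 difference was negative in all 6 tissues. The calls of Satb1 and Bach2 were lost when 1 mouse was left out (without mouse 3 or 5 for Satb1, adjusted p 0.0611 and 0.088, and without mouse 2, 3, 4 or 5 for Bach2, adjusted p 0.0761 to 0.2), and Bach2 had an adjusted p of 0.0967 without the libraries of fewer than 220 cells. The Foxp1 interaction was called each time.

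CD44hi Tregs were compared with central Tregs of the same tissue, which addresses how the factors differ between the resting and the effector state. Of 36 tests in spleen and lungs, 19 were called, and all 19 were lower in CD44hi Tregs. In spleen 3 of 9 members were lower in ST2- CD44hi Tregs (0.653% of all genes were lower) and 6 in ST2+ Tregs (1.24% of all genes). In lungs 4 were lower in ST2- CD44hi (0.736%) and 6 in ST2+ Tregs (3.30%). Satb1 and Lef1 were lower in all 4 comparisons, Bach2, Foxp1 and Foxo1 in 3 each and Tcf7 in 2. The ST2- and ST2+ comparisons of a tissue share its central libraries. The sort used the products of none of the 9 genes.

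**Figure D3:**
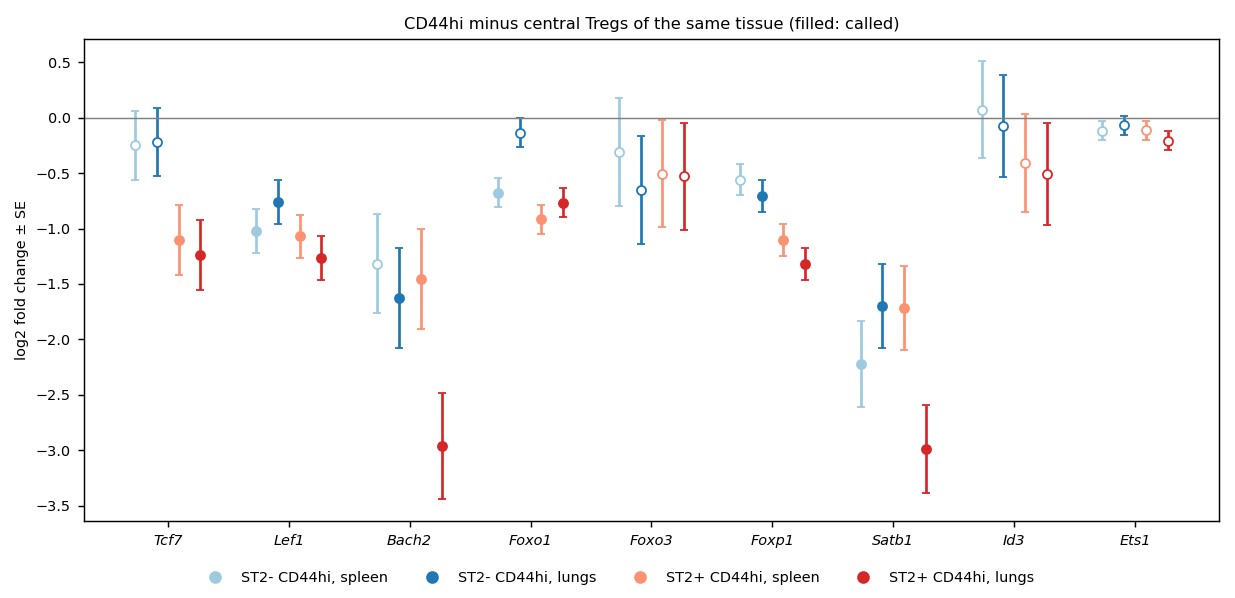
Log2 fold change of ST2- CD44hi (blue) and ST2+ CD44hi (red) Tregs against central Tregs of the same tissue, light for spleen and dark for lungs, with bars of 1 SE; filled points passed the fold and the adjusted p. Satb1 and Bach2 in lung ST2+ Tregs lie lowest, and Ets1 lies between -0.21 and -0.07 in all 4 comparisons.

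Satb1 was the member furthest below central Tregs. In spleen it was at 623, 765, 709, 769 and 659 CPM in central Tregs, at 139, 179, 152, 162 and 126 CPM in ST2- CD44hi and at 247, 224.5, 237, 209 and 154 CPM in ST2+ Tregs. Both CD44hi groups lay wholly below the central group (log2 fold change -2.22, SE 0.39, adjusted p = 3.16e-05 for ST2- and -1.72, SE 0.38, adjusted p = 0.00107 for ST2+). In lungs the central libraries reached 1008 to 1368 CPM. The log2 fold change there was -1.70 (SE 0.38, adjusted p = 0.00151) for ST2- CD44hi and -2.99 (SE 0.40, adjusted p = 3.91e-08) for ST2+ Tregs.

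Bach2 was at 155, 132, 153, 160.2 and 144.5 CPM in central Tregs of the spleen and at 219, 250.7, 171.5, 199 and 220 CPM in those of the lungs. ST2+ Tregs held 44.7 to 64.8 CPM in spleen and 22.5 to 33.2 CPM in lungs, without overlap with the central libraries. The log2 fold change was -1.45 (SE 0.45, adjusted p = 0.0303) in spleen and -2.96 (SE 0.48, adjusted p = 3.14e-06) in lungs. Among ST2- CD44hi Tregs it was -1.62 (SE 0.45, adjusted p = 0.0158) in lungs. In spleen it was -1.32 (SE 0.45, adjusted p = 0.073), below the central range in every library but not called by the main test; DESeq2 (adjusted p = 0.0321) and voom (adjusted p = 3.49e-08) called it. Leaving out mouse 2, 3, 4 or 5 lost the call in spleen ST2+ (adjusted p 0.0917 to 0.125), and leaving out mouse 2 or 5 that in lungs ST2- (0.11 and 0.0889).

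Lef1 was lower in both CD44hi populations, with 404 to 473 CPM in central Tregs of the spleen against 214 to 235 CPM in ST2- and 160.4 to 255 CPM in ST2+ Tregs (log2 fold change -1.02 and -1.07, SE 0.20 each, adjusted p = 0.000188 and 6.44e-05). In lungs it fell from 438 to 603 CPM in central Tregs to 252 to 341 CPM in ST2- and 177 to 263 CPM in ST2+ Tregs (log2 fold change -0.76 and -1.26, SE 0.20 each, adjusted p = 0.00862 and 1.96e-06). Tcf7 was at 645, 539, 579, 550.5 and 503 CPM in central Tregs of the spleen and at 598 to 802 CPM in those of the lungs. It was called against ST2+ Tregs (log2 fold change -1.10, SE 0.31, adjusted p = 0.0162 in spleen and -1.24, SE 0.32, adjusted p = 0.00379 in lungs). Against ST2- CD44hi Tregs the differences were -0.25 and -0.22 with overlapping ranges and were not called, although Tcf7 was lower in 5 of 5 mice in both tissues. The spleen call was lost without mouse 2 or 4 (adjusted p 0.0632 and 0.0896) and with all 70 libraries (0.0897). Without mouse 4, Lef1 was not called in lungs ST2- (0.0616).

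Of the forkhead factors, Foxp1 was lower in ST2+ Tregs of spleen (log2 fold change -1.10, SE 0.14, adjusted p = 2.27e-08) and lungs (-1.32, SE 0.14, adjusted p = 9.19e-11), and in ST2- CD44hi Tregs of lungs (-0.71, SE 0.14, adjusted p = 0.000339). Its central libraries held 500.3 to 622 CPM in spleen and 690.1 to 800.3 CPM in lungs, above every CD44hi library of the same tissue. In spleen ST2- CD44hi Tregs, Foxp1 passed the adjusted p (0.00681) but not the fold (log2 fold change -0.56). Foxo1 was lower in ST2- (-0.68, SE 0.13, adjusted p = 0.000276) and ST2+ Tregs of spleen (-0.92, SE 0.13, adjusted p = 5.28e-07) and in ST2+ Tregs of lungs (-0.77, SE 0.13, adjusted p = 1.65e-05). In ST2- CD44hi Tregs of lungs its difference was -0.13 with overlapping ranges. Foxo3, Id3 and Ets1 were not called in any of the 4 comparisons.

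The 2 central groups themselves differed in 2 of the 9 members (3.20% of all genes). Id3 was lower in lungs, at 49.95, 32.5, 34.6, 64.8 and 37.3 CPM against 167, 206, 191, 191 and 214 CPM in spleen (log2 fold change -2.14, SE 0.46, adjusted p = 0.00155). Ets1, an ETS factor needed for T cell survival and for Treg stability, was higher in lungs, at 1093, 1434, 1391, 1316 and 1284 CPM against 803, 847, 865, 786 and 809.5 CPM (log2 fold change 0.67, SE 0.086, adjusted p = 4.56e-08). Neither gene overlapped between the groups. Lung epithelium markers summed to 45.5 to 173 CPM in central Tregs of the lungs against 5.69 to 12.5 CPM in those of the spleen. Their part in these differences was not tested. Satb1, Bach2 and Foxp1 were also higher in lungs in 5 of 5 mice without overlap but were not called (log2 fold change 0.79, 0.51 and 0.39, adjusted p 0.297, 0.689 and 0.124). With the 2 groups fitted alone, Satb1 was called (adjusted p = 0.000162).

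Tissues were compared in pairs within ST2+ and within ST2- CD44hi Tregs. All members but Foxo3 differed among the 6 tissues in both populations by a test over the tissues together, which 47.7% of all genes passed in ST2+ and 43.3% in ST2- CD44hi Tregs. Of 135 tests of a member in a pair of tissues, 52 were called in ST2+ (12.1% of the tests over all genes and pairs) and 60 in ST2- CD44hi Tregs (11.8%). Pairs share libraries, so these calls are not independent of each other. By group means, Tcf7 and Lef1 were lowest in skin and Satb1, Foxo1 and Foxp1 lowest in VAT in both populations, Ets1 was lowest in spleen in both, and Bach2, Id3 and Foxo3 were lowest in different tissues in the 2 populations.

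**Figure D4:**
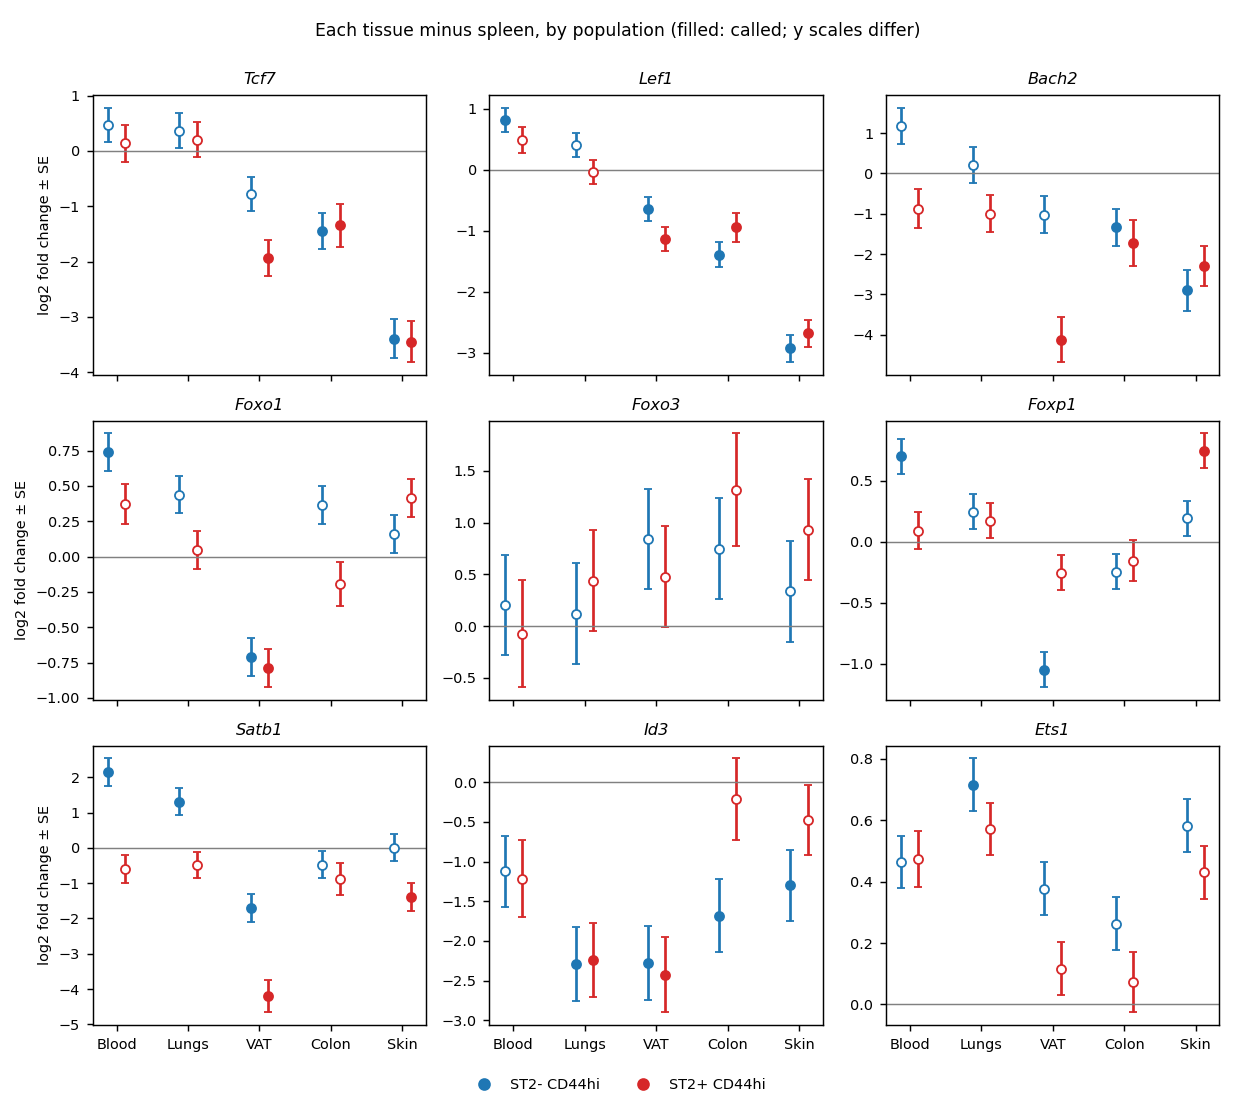
Log2 fold change of each of 5 tissues against spleen, in ST2- CD44hi (blue) and ST2+ CD44hi (red) Tregs, 1 panel per gene with its own vertical scale and bars of 1 SE; filled points passed the fold and the adjusted p. Tcf7 and Lef1 are lowest in skin, Satb1, Foxo1 and Foxp1 are lowest in VAT, and Id3 is below its spleen level in lungs and VAT in both populations.

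Tcf7 and Lef1 were lower in skin than in each of the other 5 tissues, in both populations. In ST2+ Tregs of skin, Tcf7 was at 53.1, 17.9, 19.1, 24.55 and 1.67 CPM. Against spleen the log2 fold change was -3.45 (SE 0.37, adjusted p = 1.93e-11), against VAT -1.52 (SE 0.36, adjusted p = 0.00109) and against colon -2.10 (SE 0.40, adjusted p = 7.38e-05). In ST2- CD44hi Tregs of skin it was at 74.4, 33.5, 68.6, 22.1 and 23.4 CPM, against blood a log2 fold change of -3.86 (SE 0.36, adjusted p = 1.57e-13). Lef1 was at 30.6, 45.9, 32.7, 37.3 and 21.2 CPM in ST2+ and at 38.3, 26.3, 13.4, 37.8 and 28.1 CPM in ST2- CD44hi Tregs of skin. No Lef1 library of skin overlapped with one of blood, spleen, lungs, VAT or colon of the same population. Against spleen, Lef1 had log2 fold changes of -2.68 (SE 0.22, adjusted p = 2.16e-15) in ST2+ and -2.93 (SE 0.22, adjusted p = 9.01e-17) in ST2- CD44hi Tregs.

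Colon and VAT lay between skin and the other tissues for both genes. Tcf7 in ST2+ Tregs was lower than in spleen by -1.93 (SE 0.33, adjusted p = 1.24e-05) in VAT and by -1.34 (SE 0.39, adjusted p = 0.0168) in colon. The same comparisons for Lef1 gave -1.14 (SE 0.20, adjusted p = 2.42e-05) and -0.95 (SE 0.24, adjusted p = 0.00553). In colon the call of Tcf7 was lost without mouse 2 or 3 (adjusted p 0.0554 and 0.267) and that of Lef1 without mouse 3 (0.112). Skin libraries also held keratinocyte and hair follicle markers, 6 of 6 with counts and summing to 65.5 to 1490 CPM in ST2+ and 29.6 to 1320 CPM in ST2- CD44hi Tregs, against 4.66 to 17.1 and 4.40 to 16.2 CPM in spleen. Their part in the skin results was not tested.

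By group means, Satb1, Foxo1 and Foxp1 were lowest in VAT. In ST2+ Tregs, 6 of 9 members were lower in VAT than in spleen (5.26% of all genes were called lower), and in ST2- CD44hi Tregs 5 were (1.43%). Satb1 showed the largest of these, from 247, 224.5, 237, 209 and 154 CPM in spleen to 30.2, 0.579, 8.60, 6.38 and 9.26 CPM in VAT ST2+ Tregs (log2 fold change -4.20, SE 0.46, adjusted p = 2.33e-10). Bach2 followed with -4.13 (SE 0.55, adjusted p = 5.51e-08). Foxo1 was at 145, 167, 124.5, 97.5 and 155 CPM in VAT ST2+ Tregs against 201 to 270.1 CPM in spleen (log2 fold change -0.79, SE 0.14, adjusted p = 1.50e-05). The ranges of VAT and spleen did not overlap for Satb1, Bach2 or Foxo1. Foxp1 was not called between VAT and spleen in ST2+ Tregs. Its means there were 216.8 CPM in VAT and 258.4 CPM in spleen, with overlapping ranges.

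In ST2- CD44hi Tregs, VAT was below spleen for Satb1 (log2 fold change -1.71, SE 0.40, adjusted p = 0.00285), Foxp1 (-1.05, SE 0.14, adjusted p = 1.81e-07), Foxo1 (-0.71, SE 0.14, adjusted p = 0.000147), Lef1 (-0.64, SE 0.20, adjusted p = 0.0348) and Id3 (-2.28, SE 0.46, adjusted p = 0.000435). Foxp1 held 148 to 201 CPM in VAT against 366 to 389 CPM in spleen. Lef1 was not called without mouse 1, 3, 4 or 5 (adjusted p 0.0765 to 0.154). Without the libraries of fewer than 220 cells, which left 1 VAT library here, none of the 5 genes was called, at log2 fold changes of -0.43 for Foxo1 to -1.61 for Id3. In VAT, 7 of 8 myeloid markers had counts in each population, with a summed level of 74.7 to 255 CPM in ST2+ (Itgam at 0) and 0 to 111 CPM in ST2- CD44hi Tregs (Csf1r at 0), against 2.24 to 13.1 and 2.89 to 21.6 CPM in spleen. Their part in the VAT results was not tested.

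Between skin and VAT the members moved in opposite directions. In ST2+ Tregs, 7 of 9 were called (22.1% of all genes), of which Satb1, Id3, Bach2, Foxo1 and Foxp1 were higher in skin and Tcf7 and Lef1 lower. Their log2 fold changes were 2.81 (SE 0.46) for Satb1, 1.95 (SE 0.47) for Id3, 1.83 (SE 0.57) for Bach2, 1.20 (SE 0.14) for Foxo1 and 1.0 (SE 0.14) for Foxp1, with adjusted p of 3.43e-06, 0.00117, 0.0137, 5.33e-10 and 2.21e-07. Bach2 lost this call without mouse 2, 3, 4 or 5 (adjusted p 0.0599 to 0.134). Foxo1 was at 269.5, 365.5, 326, 295 and 330 CPM in skin, above every VAT library. In ST2- CD44hi Tregs, 6 were called (18.0% of all genes). Satb1, Foxp1 and Foxo1 were again higher in skin (log2 fold change 1.71, 1.24 and 0.87), and Tcf7, Lef1 and Bach2 were lower (-2.62, -2.29 and -1.88). Bach2 was not called without mouse 5 (adjusted p = 0.0721), and Bach2, Foxo1 and Satb1 were not called without the libraries of fewer than 220 cells. Bach2 thus stood above VAT in ST2+ and below it in ST2- CD44hi Tregs of skin, and the test of that difference is the one given for the interaction above.

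By group means, Id3 was highest in spleen. Its 15 spleen libraries of the 3 populations held 126 to 242.5 CPM, and the 15 lung libraries held 23.0 to 64.8 CPM, so no lung library reached a spleen library. VAT libraries were also wholly below spleen, at 0 to 59.71 CPM in ST2+ and 23.24 to 66.99 CPM in ST2- CD44hi Tregs. Blood, colon and skin were less apart from spleen by group means than lungs and VAT were. In ST2+ Tregs, colon held 54.3 to 205.6 CPM and skin 44.7 to 154.1 CPM, overlapping with 126 to 157.4 CPM in spleen. Spleen was not called above colon there (log2 fold change 0.21, adjusted p = 0.88). The log2 fold change of lungs against spleen was -2.24 (SE 0.47, adjusted p = 0.000711) in ST2+ and -2.29 (SE 0.47, adjusted p = 0.000495) in ST2- CD44hi Tregs. Ets1 went the other way in these tissues and was lowest in spleen, where its 15 libraries held 682 to 865 CPM against 1060 to 1434 CPM in lungs. Of all 91 pairs of groups, 10 were called for Ets1, each with ST2- CD44hi or central Tregs of the lungs on the higher side, against groups of spleen, VAT ST2+ or colon ST2+ Tregs. Foxo3, the second FOXO factor of T cells, was not called in any of 91 pairs by edgeR's test (5 pairs at an unadjusted p below 0.05, lowest adjusted p 0.109). In the 41 comparisons described here it was called 0 times by edgeR and DESeq2 (2 at an unadjusted p below 0.05) and 1 time by voom. Its group means lay between 15.3 and 40.1 CPM.

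Between lungs and blood no member was called in either population by edgeR's test or DESeq2, at 4.33% and 3.12% of all genes. At an unadjusted p below 0.05 there were 3 members in ST2+ and 7 in ST2- CD44hi Tregs, beside 2693 and 2206 of the 13173 genes. Voom called 0 and 2. Blood against spleen gave 0 calls in ST2+ Tregs by edgeR and DESeq2 (1 by voom, 4.35% of all genes by edgeR). There, 4 members and 2503 of the 13173 genes had an unadjusted p below 0.05. In ST2- CD44hi Tregs spleen was below blood for Satb1 (log2 fold change -2.15, SE 0.39, adjusted p = 0.000113), Lef1 (-0.81, SE 0.20, adjusted p = 0.00647), Foxp1 (-0.70, SE 0.14, adjusted p = 0.000756) and Foxo1 (-0.74, SE 0.13, adjusted p = 0.000124), which is 4 of 9 members against 3.61% of all genes. Lef1 lost this call without mouse 2 (adjusted p = 0.0634).

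Over the 14 group means of log2 CPM, Tcf7 and Lef1 ran most closely together (Pearson r = 0.935), followed by Bach2 and Satb1 (0.89), and Foxo1 and Foxp1 (0.884). Foxo1 with Satb1 gave 0.856 and Tcf7 with Bach2 0.862, but Tcf7 with Foxo1 gave 0.422 and with Foxp1 0.337. Id3 and Ets1 ran against each other (-0.431), and Foxo3 stayed between -0.288 and 0.174 with every other member. The groups share mice and tissues, so these values describe the 14 groups only. Foxo3 and Bach2 have the fewest counts.

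**Figure D5:**
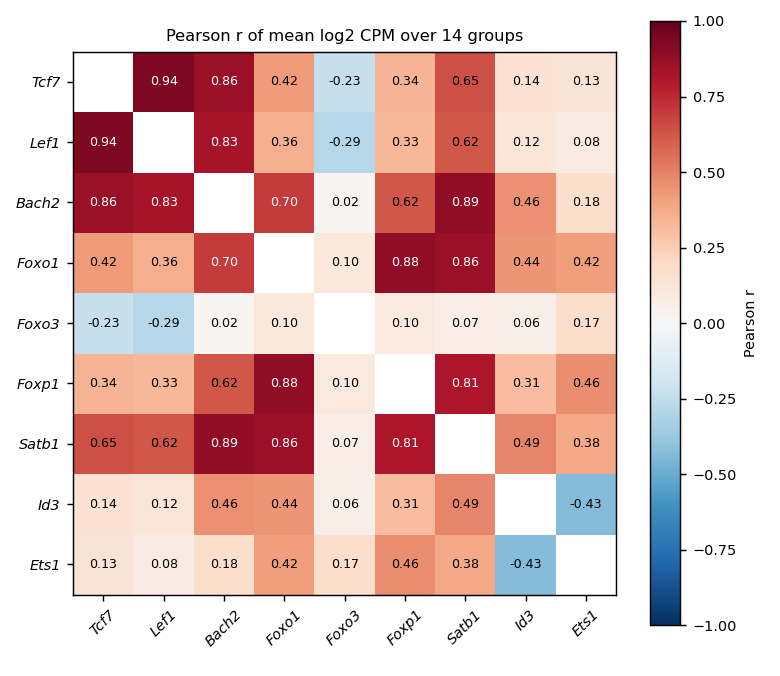
Pearson r between each pair of the 9 factors over 14 group means of log2 CPM, red for positive and blue for negative, with the value in each cell. The highest values are those of Tcf7 with Lef1, Bach2 with Satb1 and Foxo1 with Foxp1, and Foxo3 is between -0.288 and 0.174 with every other member.

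Among all tested genes, those most like each member over the 14 groups were named from the 3 highest r, and for Lef1 from 2 of them. For Tcf7 these were Ssbp2 (0.985), Ms4a6b (0.981) and Ipcef1 (0.976), and for Lef1 they were Prkcq (0.977) and Sp100 (0.974). Prkcq encodes a kinase of T cell receptor signalling. Bach2 was followed by Actn1 (0.959), Utrn (0.958) and Ift80 (0.957), and Satb1 by Setd7 (0.95), Nsg2 (0.93) and Rapgef6 (0.924). The 3 genes most like Foxo1 were Tesc (0.906), Slc26a11 (0.889) and Foxp1 itself, and those most like Foxp1 were Tet3 (0.904), Smurf2 (0.9) and Wdr82 (0.9). Id3 had Cfl2 (0.919), Zfp24 (0.903) and Zfp72 (0.883), Ets1 had Kat6b (0.902), Esyt2 (0.893) and Epc1 (0.892), and Foxo3 had Ero1lb (0.898), Gpn3 (0.871) and Sgms2 (0.845).

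Targets and controllers of the FOXO factors were set beside them. Of all genes, the share called higher in ST2+ than in ST2- CD44hi Tregs was 2.37% for blood and 1.28% for VAT. It was 0.486% for lungs, 0.349% for spleen, 0.0835% for skin and 0.0304% for colon, and the shares called lower are given above. Of 10 known FOXO targets, 4 were lower and 1 higher in ST2+ Tregs of blood, with a median log2 fold change of -0.617 against 0 over all genes. In lungs 3 were lower, in VAT 2 were lower and 1 higher, in spleen 1 was higher, and in colon and skin none was called. Il7r, which encodes the IL-7 receptor, was the target that rose, by 0.68 (SE 0.19) in blood, 1.05 (SE 0.18) in spleen and 0.89 (SE 0.18) in VAT on the log2 scale. In blood its level was 923 CPM in ST2+ against 575 CPM in ST2- Tregs. Pik3ip1, an inhibitor of PI3K, was lower in ST2+ Tregs of blood (-1.17, SE 0.25) and lungs (-1.10, SE 0.24), and Klf2, a factor of lymphoid homing, was lower in lungs (-0.77, SE 0.17).

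Of 11 genes of the PI3K and AKT pathway that controls FOXO, only Sgk1, which encodes a kinase that phosphorylates FOXO proteins, was higher in ST2+ Tregs of blood (log2 fold change 2.37, SE 0.50, adjusted p = 0.0015), at 99.0 against 18.8 CPM. It was also higher than in central Tregs of the lungs in ST2- (1.46, SE 0.45) and ST2+ Tregs (2.12, SE 0.45). Akt1 was higher in ST2+ Tregs of lungs than in central Tregs (0.64, SE 0.20) and Pik3r1 lower in ST2+ Tregs of VAT (-0.70, SE 0.18). The other 8 were not called in these 11 comparisons.

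Partners of TCF-1 and LEF-1 mostly were not called. Of 12 partners and targets, Tle4, a corepressor, was lower in ST2+ Tregs of VAT (log2 fold change -1.16, SE 0.29, adjusted p = 0.01), and no partner was called in the other 5 tissues. Against central Tregs of the lungs, Axin2, a target of the Wnt pathway, was higher in ST2+ Tregs (1.70, SE 0.59, adjusted p = 0.045), at 12.1 against 3.75 CPM. Tcf7l2 was at 0 in all 5 lung ST2+ libraries and at 0.794 to 3.31 CPM in central Tregs, so no fold is given. Among 5 E proteins and ID factors besides Id3, Id2, an inhibitor of E proteins that is high in effector cells, was higher in ST2+ Tregs of blood (1.29, SE 0.28) and spleen (1.23, SE 0.27). It was also higher in all 4 comparisons with central Tregs, by 1.76 to 2.99. Tcf3, Tcf4, Tcf12 and Id1 were not called.

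Of 12 tested relatives of the members by family, only Foxn3, a forkhead factor, was called among the 10 comparisons of ST2 and of central Tregs with CD44hi Tregs. It was lower in ST2+ Tregs of blood (log2 fold change -0.89, SE 0.15) and in all 4 comparisons with central Tregs (-0.87 to -1.08). Of 12 other quiescence genes, Klf7 was lower in the same 5 comparisons (-0.99 in blood and -1.38 to -1.85 against central Tregs) and higher in ST2+ Tregs of VAT (1.74, SE 0.27). Klf3 was lower in ST2+ Tregs of VAT (-1.18, SE 0.22). Between ST2+ and central Tregs of the lungs, 3 of the 12 were called lower, with Klf7 among them, and 1 higher. There, Klf3 was at 389.5 against 840 CPM and Klf4 at 32.5 against 7.23 CPM. Last, 10 effector Treg factors were counted. In blood 8 of them were higher in ST2+ Tregs, with a median log2 fold change of 1.47, and in each other tissue 1 was, which was Gata3 each time. Against central Tregs, 9 and 8 were higher in ST2- CD44hi Tregs of spleen and lungs (4.33% and 4.81% of all genes), and 9 and 10 in ST2+ Tregs (5.91% and 8.76%). Bhlhe40 and Rora were higher by 2.88 and 1.96 in ST2- CD44hi Tregs of spleen and by 1.40 and 2.95 in those of lungs.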

How the data were processed

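RNA of sorted Tregs was sequenced after SMART-Seq v4 amplification and Nextera XT library preparation as single reads. The deposited values are raw read counts per Ensembl gene, made by the authors with STAR against GRCm38 and HTSeq-count. Per the submitters' processing notes, HTSeq 0.4.1 and CASAVA 1.8.2 were used. These counts are not normalized.

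Libraries of 1000000 counts or fewer were left out (3 of 70), and protein-coding genes (GENCODE M21, which held 53274 of 53465 IDs) with at least 1 CPM in 10% of libraries were kept. The 14 groups were fitted together with edgeR 4.0.16 (TMM factors, quasi-likelihood test, R 4.3.3). Calls needed a fold of 1.5 or more with p, adjusted by Benjamini-Hochberg over the 13173 genes of a comparison, of 0.05 or less. CPM are scaled by TMM factors, and each SE is the log2 fold change divided by the square root of its F statistic. Alternatives used limma 3.58.1 (voom with quality weights, the tool of the study) and DESeq2 1.42.0. Few counts and 3 to 5 libraries per group limit the precision, and few sorted cells add sampling noise that counts do not show.

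A mouse number marks the same animal in all groups. Deviations from the group means were correlated tissue by tissue, between ST2+ and ST2- CD44hi Tregs. Over 27 pairs of libraries from the same mouse, the mean r was 0.0717 (lowest -0.00524, 6 above 0.1). For different mice the mean r was -0.0175. Libraries of different tissues and those of central Tregs were not paired in this way. The members and gene lists were chosen with earlier results of these data known. From each list, the 3 genes called in the most of 11 comparisons were named, and genes named beyond these were chosen after their values were seen. Some items, and the counts of FOXO targets against central Tregs, are not reported here.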

Additional observations from a re-analysis of the deposited data

Results flagged for a closer look

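In 5 of 117 sets of a member and a group of 4 or 5 libraries, 1 library stood apart from the others by Dixon's criterion, which chance gives in about 1 in 20. Bach2 was at 51.3 CPM in blood ST2+ Tregs of mouse 3, the library of 55 cells, against at most 22.6 CPM in the other mice, and Satb1 was at 216 CPM in the same library against at most 126 CPM. Satb1 was at 416 CPM in blood ST2- Tregs of mouse 5 against 701 to 811 CPM. Foxp1 was at 184 CPM in blood ST2+ Tregs of mouse 5 against 300.5 to 310.1 CPM. Ets1 was at 984 CPM in VAT ST2+ Tregs of mouse 2 against 771 to 797 CPM.

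The ST2 difference depended on the tissue for Foxp1, Satb1 and Bach2 (adjusted p of the interaction 0.000152, 0.00633 and 0.00748, edgeR). Between pairs of tissues, the Foxp1 difference was higher by 1.40 in VAT than in blood, by 1.16 in skin than in blood and by 0.87 in VAT than in lungs. For Satb1 the values were 2.75 for spleen relative to blood and -2.49 for VAT relative to spleen. For Bach2 they were 2.66 for skin relative to blood, -3.11 for VAT relative to spleen and 3.71 for skin relative to VAT, all on the log2 scale.

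The 3 libraries left out for low counts also held reads of the members. Of the 9 members, 7 were above 3 counts in blood ST2+ Tregs of mouse 1, 1 in colon ST2+ Tregs of mouse 2 and 6 in colon ST2+ Tregs of mouse 5.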

How the results depend on the processing

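Each call was followed with DESeq2, voom, median-of-ratios factors and mouse as a block, without libraries of fewer than 220 cells and without each mouse. No called result of a member changed direction in these. Under the other alternatives the direction of each call was not checked. Of 147 single calls, 147 remained with DESeq2, with median-of-ratios factors and with mouse as a replicate block, 144 with voom and 126 without the libraries of fewer than 220 sorted cells, an alternative chosen after seeing the data. With mouse as a replicate block, 12 members were called for ST2 against 11 without it, 19 against 19 for CD44hi against central Tregs, 53 against 52 and 60 against 60 for pairs of tissues in ST2+ and ST2- CD44hi Tregs, 2 against 2 between the central groups and 3 against 3 for the interaction. The added calls were Tcf7 for ST2 in lungs and Bach2 between skin and lungs in ST2+ Tregs, and no call was lost.

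Leaving out 1 mouse at a time gave 6 to 10 calls for ST2, 16 to 19 for CD44hi against central Tregs, 41 to 51 and 51 to 57 for pairs of tissues in ST2+ and ST2- CD44hi Tregs, 2 between the central groups and 1 to 3 for the interaction. The ST2 count was 6 without mouse 3 and 7 without mouse 4, and the interaction was called for 1 member without mouse 3 or 5. These fits hold fewer samples. The remaining alternatives, among them all gene types, no gene filter and all 70 libraries, kept each of the 6 counts within 1.5 times. Few counts limit Bach2, Foxo3 and Id3 most, with 0 counts of Bach2 in 2 libraries and of Id3 in 1, and the 3 colon ST2+ libraries limit each comparison with that group.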
